A study of Mus musculus with 15 samples.

Results

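The genes described here handle glucose at the cell surface and in the cytosol, and they were read in murine cardiac and hepatic allografts undergoing acute rejection. There were 9 of them, chosen by name for their place in the pathway: the glucose transporters Slc2a1 and Slc2a4, the hexokinases Hk1, Hk2 and Hk3, the liver-type pyruvate kinase Pklr, and the gluconeogenic enzymes Pck1, Fbp1 and G6pc. All probes of these genes were taken, and 13 of the 41174 probes on the array belonged to 8 of the 9 genes, against 32301 gene names in all. No probe was matched to Pck1, which was not analysed here. Hk1 had 6 probes and each of the other 7 genes had 1. Unless stated otherwise, a gene is read from its brightest probe.

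Total RNA was measured on 15 single-colour arrays in 5 groups of 3, all from male mice with no immunosuppressive drug named in the methods. The cardiac allografts were B10 hearts placed in the abdomen of CBA recipients and taken at post-operative day (POD) 5. The hepatic allografts were BR (B10.BR) livers placed in the liver's own position in D2 (B10.D2) recipients by the cuff technique and taken at POD5 or POD8. The control hearts and livers are called normal in the labels, while the legends of the study speak of syngeneic grafts, and their strain is not given. Allograft and control therefore may differ in surgery and strain as well as in rejection. The ages of the mice are not given, and the grafts were kept in RNAlater and extracted with ISOGEN. Whether each array came from a separate animal is not stated outright, so the P-values measure the spread between these arrays.

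Glucose enters cells through transporters of the Slc2a family and is trapped inside by hexokinases, which form glucose 6-phosphate. Glycolysis then carries it to pyruvate, while hepatocytes can run the route backwards and release glucose with enzymes such as fructose 1,6-bisphosphatase and glucose-6-phosphatase. Adult heart muscle takes up glucose through the insulin-responsive transporter Slc2a4 and the basal transporter Slc2a1, and activated lymphocytes and myeloid cells are known for high glucose uptake and glycolysis.

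The 75th percentile of the processed signal ran from 92.1 to 1247 over the 15 arrays, and 52.5% to 70.5% of spots were well above background. The liver controls were dimmest, at 92.1 to 226, and the heart controls brightest, at 1021 to 1247. The cardiomyocyte markers were all above background in the heart arrays and the hepatocyte markers in the liver arrays. The 3 heart allografts shared a slide and the 3 heart controls another, and in heart the slide is therefore inseparable from the group. T cell markers were called higher for 7 of 7 genes in heart allografts and for 6 of 7 in liver allografts on each day. Endothelial markers were called lower for 4 of 4 genes in heart and for none in liver. Over all genes, 15.2% were called higher in heart and 4825 of 32187 lower. In liver 5.77% were called higher at POD5 and 4.95% at POD8, and 1367 and 970 of 32285 lower. In bulk tissue, fewer cells of a type and less RNA per cell cannot be told apart.

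Hexokinase signals were higher in the allografts of both organs, Hk3 in heart and all 3 hexokinases in liver, Hk1 by its brightest probe alone. Heart allografts had higher Hk3, Slc2a1 and G6pc signals and a lower Slc2a4 signal than control hearts. G6pc was near the floor of the array in heart, and its heart groups overlapped before normalization. Liver allografts had higher Hk1, Hk2 and Hk3 signals than control livers on both days. The liver's own glucose-releasing and liver-type genes, G6pc, Fbp1 and Pklr, did not pass the test in liver on either day. In heart, 4 of the 7 members tested were called at an adjusted P under 0.05 (limma, Benjamini-Hochberg over all probes), where 30.2% of 32187 genes were called, 15.2% higher, with 4825 genes lower. In liver, 3 of 8 members were called on each day and all were higher, where 10.0% of 32285 genes were called at POD5 and 7.95% at POD8, and 5.77% and 4.95% of genes were called higher. The median log2 difference of the members was 0.23 in heart, 1.07 in liver at POD5 and 0.44 at POD8, against 0.03, -0.08 and -0.10 over all genes. The groups did not overlap for 4 of 7 members in heart (54.0% of all genes), 4 of 8 at POD5 (31.9%) and 4 of 8 at POD8 (31.6%), Slc2a1 being the added member in liver. Both liver comparisons used the same 3 controls.

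**Figure D1:**
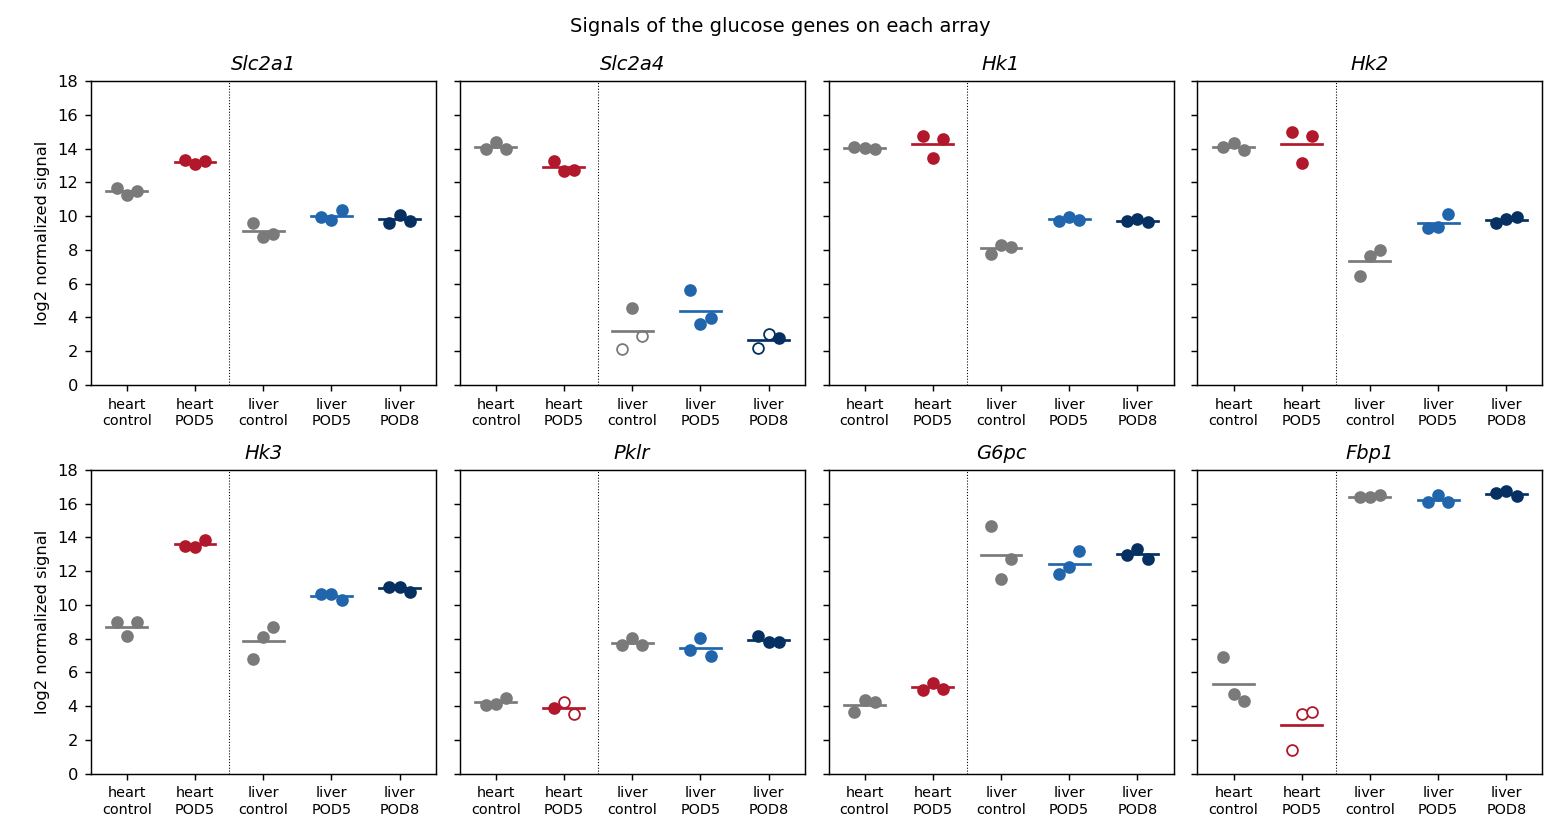
Log2 normalized signal of the 8 measured genes on each array, with groups on the horizontal axis. Each point is 1 array, the bar is the group mean, and open points are not well above background. Heart and liver arrays, divided by the dotted line, were normalized separately, and the heart values of Fbp1 keep a spot with an outlier mark. Hk3 lies near 13.59 in heart allografts against 8.71 in heart controls, and Slc2a4 is at the low end of the scale in all liver groups.

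Slc2a1, the basal glucose transporter found in most tissues, had log2 signals of 13.30, 13.10 and 13.25 in the heart allografts and 11.67, 11.27 and 11.50 in the heart controls. Every allograft lay above every control. The difference was 1.74 (SE 0.135) on the log2 scale, 3.33-fold, with an adjusted P of 0.00154 by limma. The call held in 9 other settings of the normalization, filter, variance, test and block, at 1.58 to 1.84, and without each array in turn, at 1.63 to 1.85, but not with Bonferroni adjustment or by the study's own standardized fold change (SFC).

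In liver the Slc2a1 signals were 9.94, 9.75 and 10.36 at POD5, 9.62, 10.07 and 9.73 at POD8, and 9.60, 8.74 and 8.96 in the controls. Both days lay above all controls, although the lowest POD8 array and the highest control were almost level. The differences of 0.91 (SE 0.265, adjusted P = 0.0737) at POD5 and 0.71 (adjusted P = 0.162) at POD8 did not pass the limma test. At POD5 the gene was called when all 15 arrays were fitted together (0.90, adjusted P = 0.022), with probes above background alone (0.91, adjusted P = 0.0472) and without liver control 1 (1.15, adjusted P = 0.028). With all arrays on 1 scale, the order of the group means was heart allografts at 12.52, heart controls at 10.68, liver POD5 at 10.55, liver POD8 at 10.35 and liver controls at 9.65. Of these neighbours, only the first pair differed in the 5-group fit (1.84, adjusted P = 0.00012), while the others had adjusted P-values of 0.0724 to 0.828.

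Slc2a4, the insulin-responsive transporter of muscle and fat, had log2 signals of 13.26, 12.66 and 12.75 in the heart allografts and 13.96, 14.40 and 13.97 in the controls, each the mean of 10 spots. All 3 allografts were below all 3 controls. The gene fell by 1.22 (SE 0.218) on the log2 scale, a 2.33-fold lower signal, with an adjusted P of 0.0128 by limma. The call was lost when all 15 arrays were fitted together (-1.29, adjusted P = 0.143) and with the replicate number as a block (adjusted P = 0.0576). Neither Bonferroni adjustment nor SFC called the gene. The difference stayed between -1.41 and -1.07 without each array in turn. Of the markers of cardiomyocytes, which use this transporter, 3 of 7 were called lower and none higher, where 4825 of 32187 genes were called lower. Tnnt2 and Actc1 were almost level, at mean log2 signals of 17.33 against 17.37 and 17.31 against 17.40. The summed signal of the 7 was 614400 to 852200 in allografts and 933000 to 1068000 in controls. Of the adipocyte markers, 1 of 5, Fabp4, was called lower and none higher, and the summed signal, mostly Fabp4, was 34640 to 53460 against 118500 to 132700. The other adipocyte genes above background, Adipoq, Plin1 and Cidec, had higher means in the allografts, and the median over the 5 was 1.40 higher. None of these genes was called. Their SDs were 4.65, 2.37 and 4.13 in the controls and 0.35, 0.21 and 0.35 in the allografts, so their direction is unsettled. The defining adipocyte gene Adipoq was above background on 2 of 3 control arrays and on all 3 allograft arrays, and Lep on none. The part of these cells in the Slc2a4 difference was not tested.

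In liver Slc2a4 was close to background, with log2 signals of 5.65, 3.59 and 3.996 at POD5, 2.18, 3.04 and 2.80 at POD8, and 2.14, 4.56 and 2.87 in the controls. All 3 arrays at POD5 were well above background, but 1 of 3 was at POD8 and 1 of 3 among the controls. The groups overlapped between POD5 and the controls, and neither 1.22 (SE 0.725, adjusted P = 0.332) at POD5 nor -0.52 (adjusted P = 0.706) at POD8 passed the limma test. Of the 7 members measured in both control organs, 4 were called higher in heart and 2 lower, where 53.3% of genes were called, 25.8% higher and 27.5% lower. Slc2a4 was 9.77 (SE 0.616) higher in heart on the log2 scale of all 15 arrays (adjusted P = 5.98e-08), and 7.08 higher with normexp background correction, its liver level being near background.

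The hexokinases catalyse the first step after uptake, and they differ in tissue use: Hk1 is the housekeeping form of many tissues, Hk2 the form of muscle and of growing cells, and Hk3 a form of myeloid blood cells. Their promoters are printed because these 3 genes were called higher in the liver allografts, Hk1 by its brightest probe alone. They are the 250 bases before each RefSeq start (GRCm38.p6), 5′ to 3′ on the gene's own strand. Capitals mark, on either strand, the hypoxia response core ACGTG, the PU.1 core GAGGAA and the GC box GGGCGG. The gamma-activated site TTCNNNGAA was searched too.

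Hk1, start 1, chr10:62379909-62380158, minus strand: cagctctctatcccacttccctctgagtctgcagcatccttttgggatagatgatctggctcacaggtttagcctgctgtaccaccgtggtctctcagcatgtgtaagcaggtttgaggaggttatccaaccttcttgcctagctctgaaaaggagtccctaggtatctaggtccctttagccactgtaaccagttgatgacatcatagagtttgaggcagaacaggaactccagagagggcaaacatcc
Hk1, start 2, chr10:62340422-62340671, minus strand: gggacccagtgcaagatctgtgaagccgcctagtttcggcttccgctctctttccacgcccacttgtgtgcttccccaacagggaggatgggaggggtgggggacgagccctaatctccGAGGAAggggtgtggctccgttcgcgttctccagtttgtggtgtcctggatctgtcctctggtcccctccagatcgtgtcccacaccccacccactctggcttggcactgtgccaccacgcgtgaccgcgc
Hk2, chr6:82774455-82774704, minus strand: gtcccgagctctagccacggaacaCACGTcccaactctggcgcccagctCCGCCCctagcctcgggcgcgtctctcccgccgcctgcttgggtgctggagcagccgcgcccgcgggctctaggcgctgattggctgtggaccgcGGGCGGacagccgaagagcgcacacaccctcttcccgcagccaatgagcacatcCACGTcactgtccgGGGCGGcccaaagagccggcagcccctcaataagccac
Hk3, chr13:55021386-55021635, minus strand: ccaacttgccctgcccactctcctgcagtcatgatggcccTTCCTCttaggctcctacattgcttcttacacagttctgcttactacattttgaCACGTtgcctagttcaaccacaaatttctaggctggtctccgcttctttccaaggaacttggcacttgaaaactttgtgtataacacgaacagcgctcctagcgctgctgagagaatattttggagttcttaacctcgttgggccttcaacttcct

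The Hk2 window held 2 hypoxia response cores, 226 and 52 bases before the start, and 3 GC boxes, 201, 106 and 38 bases before it. The Hk3 window held 1 hypoxia response core at 156 bases and 1 PU.1 core at 210 bases, both on the reverse strand. Of the Hk1 windows, the first held none of these letters and the second 1 PU.1 core at 131 bases. None held the gamma-activated site. Over 32851 RefSeq promoter windows of this length, 16.6% held the hypoxia response core, 23.3% the PU.1 core, 32.7% the GC box and 7.0% the gamma-activated site. A match describes the letters of the window and is not evidence of binding.

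Hk3 had the largest allograft difference of the members in both organs. Its log2 signals in heart were 13.50, 13.45 and 13.83 in the allografts and 8.997, 8.16 and 8.97 in the controls. The heart groups were far apart with no overlap. The difference was 4.88 (SE 0.271), 29.5-fold, with an adjusted P of 0.000841 by limma, and it was called in 9 other settings of the normalization, filter, variance, test and block, at 4.70 to 5.07, without each array in turn, and by SFC, but not with Bonferroni adjustment over all probes.

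In liver the Hk3 signals were 10.61, 10.67 and 10.27 at POD5, 11.05, 11.08 and 10.79 at POD8, and 6.80, 8.10 and 8.70 in the controls. All allografts lay above all controls, and the controls spread over almost 2 log2 units with liver control 1, the dimmest array, lowest. The differences were 2.65 (SE 0.433, 6.26-fold, adjusted P = 0.0108) at POD5 and 3.10 (SE 0.433, 8.60-fold, adjusted P = 0.00687) at POD8 by limma. Without any 1 of the 9 liver arrays, both stayed called, at 2.10 to 3.06 and at 2.55 to 3.51. The POD5 call was lost in a fit of the 6 POD5 and control arrays alone (2.68, adjusted P = 0.0576). On both days the call was lost with the methods' t-test after Benjamini-Hochberg adjustment (adjusted P = 0.153 and 0.0994, 3 arrays a group). It was also lost on both days with Bonferroni adjustment, while SFC called the gene at POD8 but not at POD5.

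Over all genes 15.2% were called higher in heart, and 5.77% at POD5 and 4.95% at POD8 in liver. Macrophage and monocyte markers, whose cells express Hk3, were called higher for 1 of 6 genes in heart and on each day in liver. That gene was Fcgr1, named after its value was seen among these markers. Their median difference was 0.03 in heart, where the means of Adgre1, Itgam and Cd14 were lower in the allografts, and 1.63 and 1.98 in liver. Their summed signal was 69650 to 83510 in heart allografts against 45900 to 69970 in controls, and 10930 to 15640 at POD5 and 17420 to 18580 at POD8 in liver against 2031 to 7893. In heart the 2 ranges overlapped, and Fcgr1, at a mean log2 signal of 15.10 against 13.72, carried the rise of the sum. All 6 markers were above background on every allograft array. Of the neutrophil markers, none was called higher in heart or on either day in liver, while Retnlg was called lower in heart and Camp in liver at POD5. Their summed signals were 13130 to 52410 in heart allografts against 52780 to 83420 in controls, and 3162 to 4953 at POD5 and 5047 to 13390 at POD8 in liver against 2424 to 7364. Their median difference was -0.67 in heart, -0.12 at POD5 and 1.67 at POD8. The part of these cells in the Hk3 difference was not tested.

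Hk2 was the most raised member in liver after Hk3. Its log2 signals were 9.30, 9.38 and 10.10 at POD5, 9.59, 9.81 and 9.97 at POD8, and 6.44, 7.62 and 7.97 in the controls. No allograft overlapped the controls. The differences were 2.25 (SE 0.402, 4.76-fold, adjusted P = 0.0147) at POD5 and 2.44 (SE 0.402, 5.44-fold, adjusted P = 0.0126) at POD8 by limma. The POD5 call was lost in the fit of 6 arrays (adjusted P = 0.0679), and the POD8 call without POD8 allograft 2 (2.43, adjusted P = 0.0567). Both calls were lost with the methods' t-test after Benjamini-Hochberg adjustment (adjusted P = 0.168 and 0.109), with Bonferroni adjustment and by SFC.

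In heart, where Hk2 is a main hexokinase, the signals were 14.98, 13.15 and 14.75 in the allografts and 14.11, 14.31 and 13.90 in the controls. Allografts 1 and 3 were above every control and allograft 2 was below every control. The difference of 0.19 (SE 0.516, 95% interval -1.11 to 1.498, adjusted P = 0.809) did not pass the limma test. Without heart allograft 2 it was 0.75 and was called (adjusted P = 0.0237), and without heart allograft 1 it was -0.16 (adjusted P = 0.856). Hk1 behaved alike in heart, with 14.76, 13.47 and 14.56 in the allografts and 14.08, 14.04 and 13.97 in the controls. Allograft 2 was again the low array, and it was also the allograft with the fewest spots well above background, 56.2% against 61.3% and 67.0%. The Hk1 difference was 0.23 (SE 0.358, adjusted P = 0.66), and 0.62 without heart allograft 2 (adjusted P = 0.0111).

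In liver the brightest Hk1 probe read 9.69, 9.97 and 9.80 at POD5, 9.69, 9.86 and 9.63 at POD8, and 7.78, 8.32 and 8.16 in the controls. The allografts of both days lay more than a log2 unit above the highest control. The differences were 1.73 (SE 0.166, 3.32-fold, adjusted P = 0.00136) and 1.64 (SE 0.166, 3.12-fold, adjusted P = 0.00187) by limma. Both calls held without each array in turn, at 1.57 to 1.83 and at 1.48 to 1.74. The POD5 call was lost with the methods' t-test after Benjamini-Hochberg adjustment (adjusted P = 0.0638). Both calls were lost with Bonferroni adjustment and by SFC.

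The other Hk1 probes, annotated to a different RefSeq transcript from the brightest, did not repeat that call in liver. The probe A_52_P674530, above background on 15 of 15 arrays, read 5.84, 5.73 and 5.07 at POD5, 5.81, 5.77 and 5.57 at POD8, and 4.62, 5.08 and 4.85 in the controls. It was higher by 0.70 (SE 0.226, adjusted P = 0.1) and 0.87 (adjusted P = 0.0607), which did not pass. The probe A_51_P249024, also above background throughout, gave -0.23 (SE 0.489, adjusted P = 0.808) at POD5 and 0.18 (adjusted P = 0.861) at POD8. The probe A_52_P479599 was not well above background on any control array but was on 2 of 3 arrays at POD5 and 3 of 3 at POD8, where it gave a bound of at least 1.19-fold higher (adjusted P = 0.0853). Such a bound sets the bright group's mean against the lowest signal well above background on the dim arrays. A_52_P87141 was well above background on 0 of 15 arrays and A_52_P9337 on 7 of 15. In heart none of the 6 probes was called, and all 6 differences lay between 0.15 and 0.40.

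**Figure D2:**
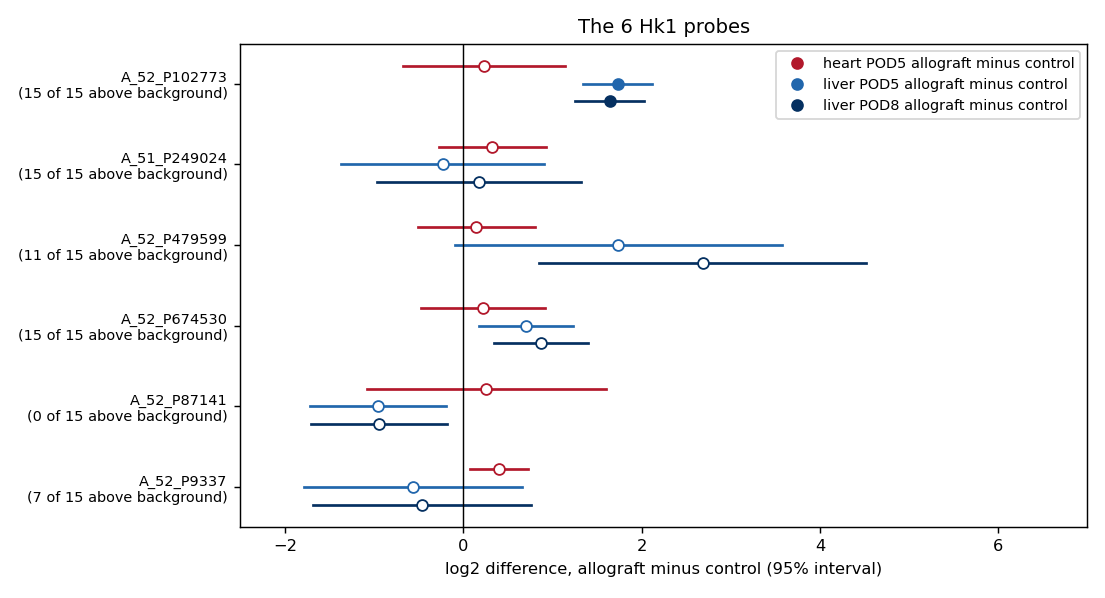
Log2 difference of allograft minus control for each of the 6 Hk1 probes, with 95% intervals, in heart at POD5 and in liver at POD5 and POD8. Filled points passed an adjusted P of 0.05 and open points did not. The filled points are those of A_52_P102773 in liver, at 1.73 and 1.64, while A_51_P249024 lies at -0.23 and 0.18.

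The 3 hexokinases were also compared within the 1 slide that held both POD8 allografts and liver controls, 2 of each. The POD8 differences there were 1.72 for Hk1, 2.66 for Hk2 and 3.61 for Hk3, at or above the values over all arrays. Its controls, 1 and 2, were the dimmest arrays of the series. Liver control 3, on another slide, read highest of the controls for Hk2 (7.97) and Hk3 (8.70). With slide as a fixed block, none passed by limma (adjusted P = 0.104, 0.128 and 0.107). No slide held both POD5 allografts and liver controls.

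Between the control organs, Hk2 was 5.53 (SE 0.479) and Hk1 4.72 (SE 0.28) higher in heart on the log2 scale of 15 arrays, while Hk3 differed by -0.58 (SE 0.388, adjusted P = 0.227). On that scale the Hk3 order was heart allografts at 12.92, liver POD8 at 11.48, liver POD5 at 11.04, liver controls at 8.44 and heart controls at 7.85. The heart allografts differed from their neighbour (1.44, adjusted P = 0.0116), as did liver POD5 from the liver controls (2.60, adjusted P = 0.000981), but not the days of the liver allografts or the controls of the organs. For Hk1 and Hk2 both heart groups led, at 13.37 to 13.61 and at 13.44 to 13.64, the liver allografts followed at 10.27 to 10.36 and at 10.14 to 10.33, and the liver controls came last at 8.65 and 7.92. The heart groups did not differ from each other in this fit for either gene (adjusted P = 0.587 and 0.834), nor did the liver days (0.961 and 0.946).

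Pklr, the pyruvate kinase of liver and red cells, read 7.30, 8.01 and 6.96 at POD5, 8.18, 7.82 and 7.79 at POD8, and 7.63, 8.06 and 7.60 in the liver controls. All 3 groups overlapped. The differences of -0.34 (SE 0.28, 95% interval -0.99 to 0.32, adjusted P = 0.486) at POD5 and 0.17 (adjusted P = 0.752) at POD8 did not pass the limma test. In heart the gene was dim, with 3.90, 4.23 and 3.53 in the allografts, 1 of 3 well above background, and 4.10, 4.16 and 4.47 in the controls. That difference of -0.35 (SE 0.216, adjusted P = 0.267) did not pass, and it was 0.04 with scaling to the 75th percentile in place of quantile normalization.

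G6pc, the catalytic unit of glucose-6-phosphatase and the last step of glucose release, varied widely among the liver controls. They read 14.64, 11.52 and 12.71, the livers at POD5 11.85, 12.26 and 13.17, and those at POD8 12.95, 13.31 and 12.69. Every allograft lay inside the range of the controls. The differences were -0.53 (SE 0.736, 95% interval -2.24 to 1.19, adjusted P = 0.694) at POD5 and 0.03 (SE 0.736, 95% interval -1.69 to 1.74, adjusted P = 0.99) at POD8 by limma. The sign at POD5 turned without liver control 1 (0.31).

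In heart, which does not release glucose, the G6pc signal was near the floor of the array. It read 4.99, 5.34 and 5.04 in the allografts and 3.67, 4.34 and 4.24 in the controls, all 6 well above background. Before normalization the processed signals overlapped, at 33.59, 20.65 and 33.49 in the allografts and 17.52, 22.32 and 21.41 in the controls. After normalization the groups did not overlap, and the difference of 1.04 (SE 0.218, 2.05-fold) had an adjusted P of 0.0206 by limma. It did not pass without heart allograft 3 (adjusted P = 0.058), without heart control 3 (0.0566) or with all 15 arrays fitted together (0.99, adjusted P = 0.241). Nor did it pass with Bonferroni adjustment or by SFC, and it was 0.35 with normexp background correction. The control livers exceeded the control hearts by 10.04 (SE 0.588) on the log2 scale of 15 arrays, where the value for heart minus liver was -7.30 with normexp background correction.

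Fbp1, the fructose 1,6-bisphosphatase of liver and kidney, was bright in liver, with 16.06, 16.51 and 16.06 at POD5, 16.60, 16.71 and 16.44 at POD8, and 16.37, 16.37 and 16.51 in the liver controls. The groups overlapped on both days. The differences were -0.20 (SE 0.155, 95% interval -0.56 to 0.16, adjusted P = 0.443) and 0.17 (95% interval -0.19 to 0.53, adjusted P = 0.537) by limma. With scaling to the 75th percentile they were -0.94, which was called lower (adjusted P = 0.0349), and -0.56 (adjusted P = 0.0982). That scaling moved the median of all probes by -0.32 at POD5 and -0.39 at POD8 in liver, and by 0.45 in heart.

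In heart Fbp1 was left out of the fit because its spot on heart control 1 carried an outlier mark. With that spot kept, the signals were 6.92, 4.72 and 4.32 in the controls, all well above background, and 1.38, 3.55 and 3.65 in the allografts, none of them well above background. With the marked spot in the control mean, the controls were at least 2.01-fold higher. The limma fit gave -2.46 (SE 0.956, adjusted P = 0.109), which did not pass. Both values lean on that spot, at 6.92 against 4.72 and 4.32 on the unmarked controls. In heart, where 30.2% of all genes were called, Ahsg and Apoa1 of the 6 hepatocyte markers were called lower in allografts and Tat higher. Their summed signal was 1148 to 10480 in the heart controls and 523 to 931 in the heart allografts, and Ahsg carried most of that change. Neither Apoa1 nor the defining genes Alb and Ttr were well above background on any heart array, so the Apoa1 call compares background values. The part of hepatic transcripts in the Fbp1 difference was not tested.

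**Figure D3:**
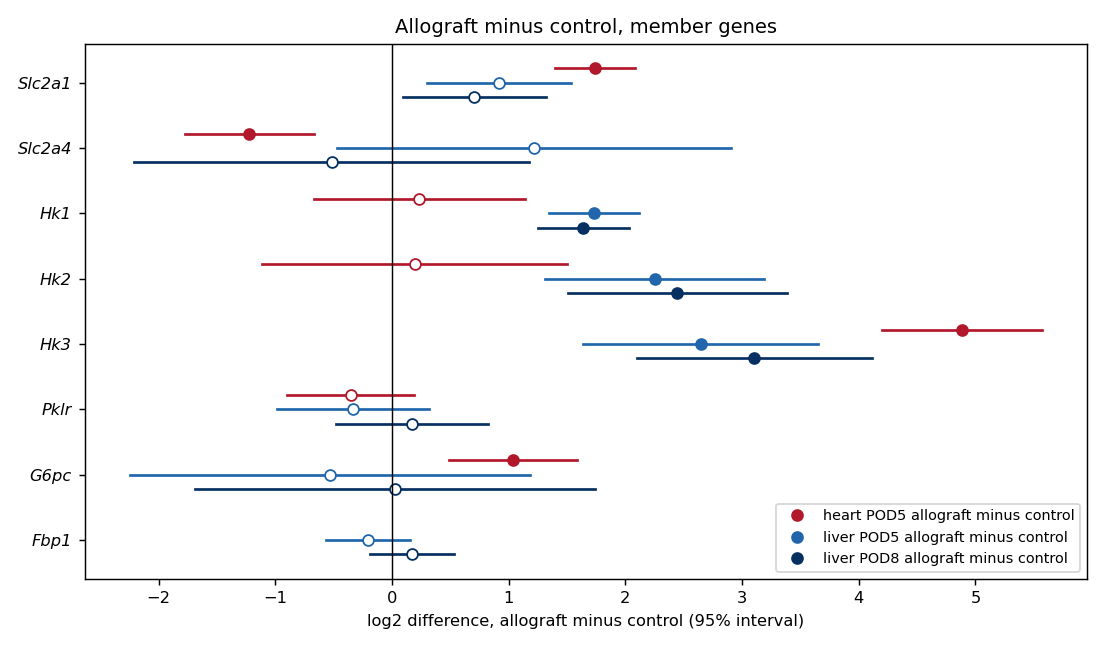
Log2 difference of allograft minus control for each measured gene, with 95% intervals, in heart at POD5 and in liver at POD5 and POD8. Filled points passed an adjusted P of 0.05 and open points did not. Hk3 is raised in all 3 comparisons (4.88, 2.65 and 3.10), Slc2a4 is lower in heart (-1.22), and Fbp1 has no heart value in this fit.

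Between POD8 and POD5 in liver, none of the 8 members was called by limma, where 0.00929% of genes were called. At an unadjusted P under 0.05 there were 2, Slc2a4 (-1.74, adjusted P = 0.624) and Fbp1 (0.38, adjusted P = 0.618), and none of the 10 other settings called a member. Hk3 at POD8 lay above all POD5 arrays by signal, but the difference was 0.46 (SE 0.433, adjusted P = 0.829). The days did not overlap for Hk3 and Slc2a4, 2 of 8 members, against 20% of genes tested (6448 of 32285).

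The difference between the organs' POD5 responses was tested on all 15 arrays, where 18.1% of genes were called, 8.97% with a higher and 9.17% with a lower value in heart. The organs also differ in strain combination, which cannot be told apart from the organ, and in slide, apart from 1 slide that held the 3 heart allografts and liver POD5 allograft 3. Array brightness ran opposite ways: the 75th percentile was 394 to 710 in heart allografts against 1021 to 1247 in heart controls. In liver it was 338 to 478 at POD5 against 92.1 to 226 in controls. Scaling to the 75th percentile moved the median of all probes in this contrast by 0.58. Hk3 rose more in heart than in liver, by 2.47 (SE 0.549, adjusted P = 0.0108): the response was 5.07 in heart and 2.60 in liver. Hk1 responded less in heart, by -1.47 (SE 0.395, adjusted P = 0.0252), with 0.24 in heart and 1.71 in liver. The Hk1 call was lost with slide as a random block (adjusted P = 0.0722) and without heart control 1, heart control 3 or liver POD5 allograft 2 (adjusted P = 0.0555, 0.051 and 0.0525). The other Hk1 probes above background on all 15 arrays did not pass, at 0.57 for A_51_P249024 (adjusted P = 0.541), the opposite direction, and -0.49 for A_52_P674530 (adjusted P = 0.386). Hk2 (-2.03, adjusted P = 0.0577), Slc2a4 (-2.55, adjusted P = 0.0628) and Slc2a1 (0.94, adjusted P = 0.0634) did not pass, nor did G6pc (1.498, adjusted P = 0.227) or Pklr (-0.0011, adjusted P = 0.999).

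The rest of the pathway was read from a list of 61 genes, of which 59 were measured. In heart 12 were called higher and 12 lower by limma, in liver 9 higher and 1 lower at POD5 and 10 higher and 1 lower at POD8. Over all genes 30.2%, 10.0% and 7.95% were called in either direction. The median log2 difference of the list was -0.07 in heart, 0.08 in liver at POD5 and -0.06 at POD8, against 0.03, -0.08 and -0.10 over all genes. With scaling to the 75th percentile the liver counts were 10 higher and 9 lower at POD5 and 8 higher and 11 lower at POD8. That scaling moved the median of all probes by -0.32 at POD5 and -0.39 at POD8. With the replicate number as a block, the heart counts were 9 higher and 5 lower. The share of all genes called was not counted in either setting. At POD5, 6 genes were called in both organs, 18 in heart alone, 4 in liver alone and 31 in neither.

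Among 19 glycolytic genes from glucose 6-phosphate to lactate, 7 were called higher and 4 lower in heart, and 6 were called higher at POD5 and 5 at POD8 in liver with none lower. Over all genes the share called was 30.2% in heart, 10.0% at POD5 and 7.95% at POD8 in liver. The heart allografts were higher in the lactate exporter Slc16a3 (2.29, SE 0.304, adjusted P = 0.00554) and in the brain-type aldolase Aldoc (2.18, SE 0.145, adjusted P = 0.00114). In liver the pyruvate kinase of most non-hepatic tissues, Pkm, was higher by 2.82 (SE 0.435, adjusted P = 0.00872) at POD5 and 2.61 (adjusted P = 0.0132) at POD8. The platelet-type phosphofructokinase Pfkp was higher by 2.72 (SE 0.16, adjusted P = 0.000217) and 2.85 (adjusted P = 0.000209). Slc16a3 was also called higher in liver, by 1.90 at POD5 and 2.04 at POD8, and Pkm and Pfkp in heart, by 0.88 and 1.88.

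Of the 8 other hexose transporters, 1 was called higher and 1 lower in heart, and 2 higher and 1 lower on each day in liver. Calls over all genes came to 30.2% in heart, and to 10.0% and 7.95% in liver at POD5 and POD8. The lysosomal transporter Slc2a6 was the heart gene that rose, by 3.75 (SE 0.409, 13.5-fold, adjusted P = 0.00326). It was also called higher in liver, by 1.51 at POD5 and 1.70 at POD8. Slc2a12, an insulin-sensitive transporter, fell in heart by 2.50 (SE 0.25, adjusted P = 0.00264). In liver the intracellular transporter Slc2a8 fell by 0.997 (SE 0.139, adjusted P = 0.00609) at POD5 and by 0.80 (adjusted P = 0.0151) at POD8. Of the pyruvate dehydrogenase kinases, which restrain entry of pyruvate into the citric acid cycle, 3 were measured. Of these, 1 was called higher and 2 lower in heart, where Pdk3 rose by 1.51 and Pdk4 fell by 2.04 (SE 0.359, adjusted P = 0.0123). Pdk3 was also higher in liver by 2.50 (SE 0.449, adjusted P = 0.015) and 2.56 (adjusted P = 0.0158).

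Of 5 other gluconeogenic genes, 2 were called higher and 1 lower in heart and none in liver on either day, where the liver medians were -0.16 and -0.17. The lower gene was Fbp2, the muscle-type fructose bisphosphatase, which fell by 3.17 (SE 0.635, adjusted P = 0.0179). Of 7 glycogen genes, 1 was called lower in heart and none in liver at POD5 or POD8. Of 10 measured regulators, 3 were called lower in heart and none in liver on either day. Beside these counts, 30.2% of all genes were called in heart, and 10.0% and 7.95% in liver. No list was tested as a set.

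**Figure D4:**
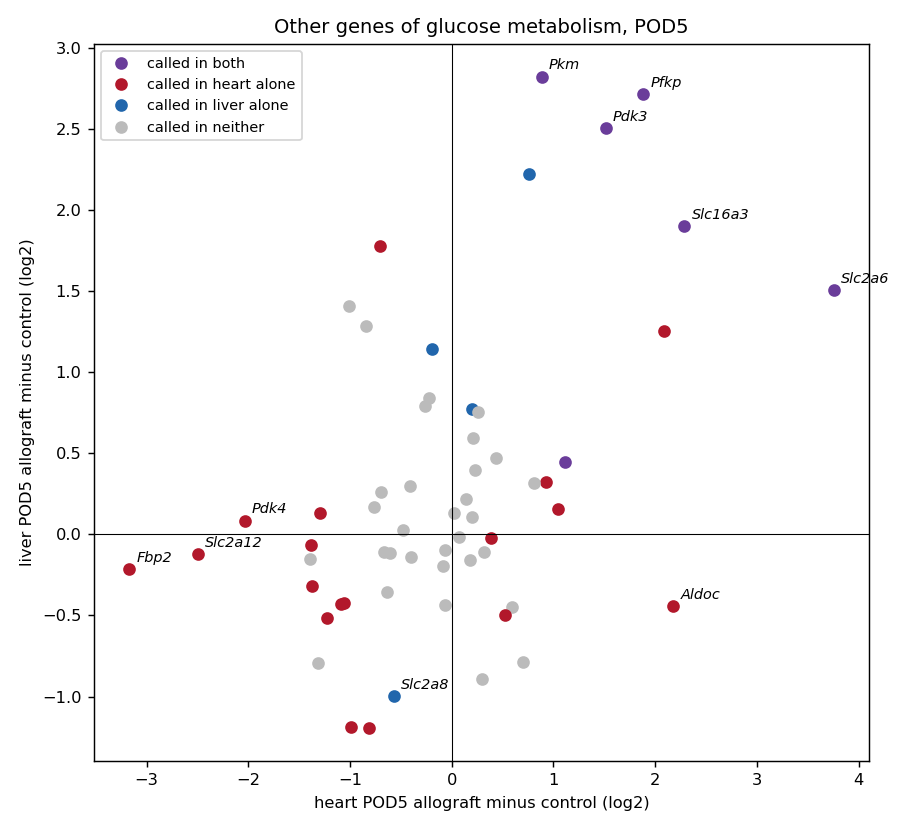
Each point is 1 of 59 other genes of glucose metabolism, with its log2 difference of allograft minus control in heart on the horizontal axis and in liver on the vertical axis, both at POD5. Colours give the organ in which the gene was called, and the named genes are labelled. Slc2a6 (3.75), Slc16a3, Pfkp, Pdk3 and Pkm lie in the upper right, called in both organs.

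The genes whose signals ran most like each member were taken over the arrays of the organ where the member was brighter in controls, as a description. Over 6 heart arrays and 14522 candidate genes, Slc2a1 ran closest to Gbp2, Qsox1 and Tapbp (Pearson r of 0.9993 to 0.9997), and Slc2a4 to Pank1, Chchd10 and Whrn (0.9988 to 0.9992). Hk1 ran closest to Tshz1, Slc6a6 and Zzef1 (0.9918 to 0.9962), and Hk2 to Iars, Zfp697 and Eid3 (0.9903 to 0.9944). Over 9 liver arrays and 14153 candidates, Hk3 ran closest to Serpina3f, Casp1 and Itgb2 (0.9956 to 0.9991), the last being the shared chain of leukocyte integrins. Pklr, Fbp1 and G6pc had looser neighbours. Pklr ran closest to Gtpbp1, Aaas and Ces1c (0.906 to 0.931), Fbp1 to Nudt16, Bcl6 and Ces1c (0.905 to 0.971), and G6pc to Rbm5, Dapk1 and Rps21 (0.91 to 0.922). These arrays share groups, so high values of r follow in part from any difference between groups, and the number of candidates is large.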

How the data were processed

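Total RNA was labelled with Cy3 and hybridized to Agilent arrays, which the authors read with Agilent Feature Extraction 10.5.1.1. The deposited files hold, per spot, the processed signal intensity (gProcessedSignal), already background-subtracted, with marks for spots well above background or outlying, and no spot was saturated. The natural log, outlier-marked spots left out, was averaged over spots of a probe and quantile normalized over the arrays of each fit (6 heart, 9 liver or all 15), following the study's methods, and is given here as log2. A probe with all its spots marked on an array left that fit. Groups were compared with limma 3.58.1 in R 4.3.3 (lmFit, eBayes), with Benjamini-Hochberg adjustment over all probes (41025 in heart, 41152 in liver, 41003 in all) and a threshold of 0.05. A gene was called through its brightest probe over the 15 arrays. The script was tested on simulated data. Array numbers and signal over background limit the precision.

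Probes were named through their transcript accession and a RefSeq table (GRCm38.p6), which gave 64.8% of the 41174 probes a symbol. The gene locations of that table are not given, since the files use another build. Named genes are all members, per comparison within an organ the 3 higher and 3 lower pathway genes with the largest called differences, and per member the 3 most correlated genes. The members and lists were chosen with earlier results of these data known, and 1 gene of the pathway list is not reported here. Alternatives were 75th percentile scaling, normexp correction (offset 50), trended and robust variance, other sets of arrays, dim-probe filters, any probe of a gene, Bonferroni adjustment, the methods' t-test, standardized fold change (SFC, bin size 1000), slide and replicate blocks, each array left out, and, chosen after seeing the data, outlier spots kept. Same-numbered arrays did not deviate together (r from -0.142 to 0.051), and the main fits were unpaired. Low correlations cannot exclude that the numbers pair samples. Figures were drawn with matplotlib 3.10.9.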

Additional observations from a re-analysis of the deposited data

Results flagged for a closer look

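The test of the difference between the organs' POD5 responses, fitted on all 15 arrays by limma with Benjamini-Hochberg adjustment, passed for 2 of 7 members. It also passed for 6 other genes named in the report. Those genes were named for large called differences within an organ, which form part of this contrast, so their passing is partly built in. Of the whole pathway list 15 of 59 genes passed, and of all genes 18.1%. In each value the heart response comes first and the liver response is subtracted, on the log2 scale. Hk3 rose in both organs and more in heart, by 2.47 (adjusted P = 0.0108). Hk1 was called higher in liver and was not called in heart, and the responses of its brightest probe differed by -1.47 (adjusted P = 0.0252). That call was lost with slide as a random block (adjusted P = 0.0722) and without heart control 1, heart control 3 or liver POD5 allograft 2 (0.0555, 0.051 and 0.0525). The other Hk1 probes above background on all arrays gave 0.57 (A_51_P249024, adjusted P = 0.541) and -0.49 (A_52_P674530, adjusted P = 0.386).

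The transporter Slc2a6 rose more in heart by 2.33 (adjusted P = 0.00766), with responses of 3.83 and 1.5045. Aldoc differed by 2.61 (adjusted P = 0.000215), with 2.17 in heart and -0.44 in liver. Fbp2 differed by -2.87 (adjusted P = 0.0245), Slc2a12 by -2.25 (adjusted P = 0.000652) and Pdk4 by -2.22 (adjusted P = 0.0482). The liver responses of these 3 genes were -0.23, -0.16 and 0.09. Pkm responded less in heart, by -1.87 (adjusted P = 0.0315), with 0.90 in heart and 2.77 in liver. The organs differ in strain combination as well, which cannot be told apart from the organ, and in slide, apart from the 1 slide that held the heart allografts and liver POD5 allograft 3. Heart allograft arrays were also dimmer than their controls, and liver POD5 allograft arrays brighter than theirs.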

How the results depend on the processing

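Each count of calls is given with the number in the report first. The share of all genes called was counted for the main fits alone, so the other counts have no share beside them. In heart the members called went from 4 to 2 with all 15 arrays fitted together, 1 (Hk3) by SFC and 0 with Bonferroni adjustment, and the pathway genes from 24 to 0 by both of the last. In liver at POD5 the members went from 3 to 1 in the fit of 6 arrays and to 0 with Bonferroni adjustment, SFC or the methods' t-test after Benjamini-Hochberg adjustment, and at POD8 from 3 to 1 by SFC and that t-test and to 0 with Bonferroni adjustment or slide as a fixed block. The POD5 pathway genes went from 10 to 19 with 75th percentile scaling, 18 with all 15 arrays, 17 by the unadjusted t-test, 6 in the fit of 6 arrays, 3 by the adjusted t-test, 1 with Bonferroni adjustment and 0 by SFC. At POD8 they went from 11 to 19 with 75th percentile scaling, 19 by the unadjusted t-test, 7 in the fit of 6 arrays, 4 by the adjusted t-test, 1 with Bonferroni adjustment, 1 by SFC and 0 with slide as a fixed block. For the difference between the organs' responses the members went from 2 to 5 with 75th percentile scaling, 4 with probes above background alone, 1 with slide as a random block and 0 with Bonferroni adjustment. The cause of these changes was not tested.

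With the replicate number as a block, 3 members were called in heart, 3 in liver at POD5 and 3 at POD8, and 14 heart pathway genes against 24, so Slc2a4 was the member lost and no other member's call changed. The block changed no other count by over 1.5 times. Leaving out each array in turn gave 3 to 6 members in heart, 3 to 4 in liver at POD5, 2 to 3 at POD8, 1 to 5 for the organs' difference and 6 to 7 between the control organs. It gave 14 to 26, 8 to 15 and 5 to 12 pathway genes. The 14 in heart came without heart allograft 3 or heart control 3, and the 5 at POD8 without POD8 allograft 1 or 2. The 5 for the organs' difference came without liver control 2, and the 1 without heart control 1 or heart control 3.

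Signs turned for uncalled values only. With 75th percentile scaling, Pklr in heart was 0.042, and at POD8 Fbp1 was -0.56 and G6pc -0.31. The Pklr organs' difference was 0.40 with that scaling, 0.24 with normexp correction, 0.12 with slide as a random block and 0.0077 with outlier spots kept. Without 1 array, Hk1 in heart ran from -0.017 to 0.62, Hk2 in heart from -0.16 to 0.75, G6pc in liver from -1.24 to 0.31 on POD5 and from -0.69 to 0.86 on POD8, Slc2a4 at POD8 from -1.05 to 0.17, and the Pklr organs' difference from -0.23 to 0.29. Signal over background limits Slc2a4 in liver and Pklr, G6pc and Fbp1 in heart.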
